A study of Mus musculus with 15 samples.

Results

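Interferon-stimulated genes are switched on when a cell is exposed to an interferon, a secreted signal of infection and tissue damage. The 39 genes described here, of 15258 in the deposited tables, were taken by name from a list of interferon signalling factors, antiviral effectors and interferon-inducible GTPases. The rule uses names only, but the list was drawn up with earlier results of these data in view. All 39 were present. An expression filter, which asked for 2.95 reads per M (what 10 reads make in the library of median depth) in 5 or more libraries, kept 37 of them and 11018 genes in all. The other two, Dhx58 and Gbp5, were too low to test.

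Type I interferons bind the receptor made of IFNAR1 and IFNAR2, and the kinases JAK1 and TYK2 then activate ISGF3, a complex that includes STAT2 and IRF9 and binds a promoter element called the interferon-stimulated response element (ISRE). Interferon gamma binds IFNGR1 and IFNGR2 and acts at another element, the gamma-activated site (GAS). In the heart, cardiomyocytes, fibroblasts, endothelial cells and resident macrophages can all respond to interferons, and the response is best known there from viral myocarditis and infarction.

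The RNA came from the left ventricle of male C57BL/6NRj mice and was profiled by BRB-seq, which tags each sample with a barcode and sequences transcripts at the 3′ end. Surgery was either a sham operation or transverse aortic constriction (TAC), which narrows the aortic arch and so loads the left ventricle with pressure. The mice carried minipumps with saline or with neuregulin-1 (NRG1), a growth factor that acts on the ERBB3 and ERBB4 receptors. The groups were sham saline, TAC saline and TAC NRG1, with 5 libraries each, and no sham mice received NRG1. Age, NRG1 dose and the time after surgery are not given in the labels, nor is it stated whether the 5 libraries of a group are 5 different animals, so a p-value here reflects only how much these samples varied.

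The libraries held 2.02 to 5.62 M reads. The limma tests were two-sided and were adjusted over all 11018 genes (Benjamini-Hochberg, threshold 0.05), and only genes past that threshold are said to have risen or fallen. Levels are in CPM on the authors' scaling, and differences are in log2 units ± standard error (SE). Libraries TAC NRG1 4 and 5 were the shallowest, with 2.02 and 2.13 M reads, and had the highest haemoglobin transcript shares, 0.366% and 0.350% of reads against 0.0888% to 0.222% in the other libraries. All 5 red cell marker genes rose in TAC NRG1 against TAC saline, by 0.96 to 1.06 log2 units. Mitochondrially encoded transcripts took 30.5% to 31.8% of reads in sham saline, 26.0% to 29.6% in TAC saline and 23.7% to 29.0% in TAC NRG1. The part of these shares in the results was not tested. In tissue RNA, fewer cells of a type and less RNA per cell cannot be told apart.

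Promoters are shown for 6 members that rose under TAC or fell with NRG1 and that carry the ISRE letters. The RefSeq promoter table of build GRCm38.p6, which gives 250 bases before to 50 bases after each transcription start, held 28 of the 39 members with 34 promoters. The letters GAAANNGAAA were searched on both strands, where the other strand reads TTTCNNTTTC, and matches were allowed to overlap. They occurred in 18 of the 34 member promoters (52.9%, in 17 of 28 genes), against 3.44% of all 32851 promoters of this length. The GAS letters TTCNNNGAA, which read the same on both strands, occurred in 10 of the 34 (29.4%), against 8.30% of all promoters. In the stretches below, each printed 5′ to 3′ on the gene's strand, capitals mark the ISRE letters.
Isg15, chr4:156200840-156200931, minus strand: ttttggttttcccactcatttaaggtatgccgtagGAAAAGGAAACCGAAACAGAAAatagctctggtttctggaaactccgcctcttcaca
Ifit3, chr19:34583338-34583451, plus strand: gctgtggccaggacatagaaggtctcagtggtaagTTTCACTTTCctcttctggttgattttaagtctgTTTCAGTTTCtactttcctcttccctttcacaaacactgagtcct
Irgm1, chr11:48871400-48871485, minus strand: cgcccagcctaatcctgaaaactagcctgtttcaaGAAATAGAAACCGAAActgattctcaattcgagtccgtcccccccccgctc
Lgals9, chr11:78984935-78985014, minus strand: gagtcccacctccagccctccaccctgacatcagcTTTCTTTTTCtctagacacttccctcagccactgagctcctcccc
Gbp3, chr3:142559964-142560049, plus strand: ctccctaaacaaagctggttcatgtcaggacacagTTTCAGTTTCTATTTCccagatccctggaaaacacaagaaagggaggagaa
Gbp7, chr3:142530248-142530327, plus strand: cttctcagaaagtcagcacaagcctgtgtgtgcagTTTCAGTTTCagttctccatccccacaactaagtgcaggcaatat
In Isg15 the capitals hold 3 overlapping matches, the outer ones with their first base at positions -78 and -66, counted from the transcription start. Irgm1 holds 2 overlapping matches at -30 and -24, Gbp3 2 at -45 and -39, Ifit3 2 separate ones at -156 and -122, and the stretches of Lgals9 and Gbp7 show 1 each, at -55 and -53. Lgals9 has a further match past its start, outside the printed stretch. The windows of Irf7, Irf9, Oasl2, Rnf213, Ifi44, Xaf1 and Lgals3bp do not hold these letters. The promoters of Dhx58, Zbp1, Usp18, Oas2, Ifi27l2a, Rtp4, Parp14, Gbp4, Gbp9, Iigp1 and Ly6e were not used here. A match is a description of the letters and not evidence of a bound site.

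Pressure overload was compared first, as TAC saline against sham saline. Of the 37 tested members, 20 rose, none fell and 17 did not pass the threshold, where 10.7% of all tested genes passed it, 6.47% upward and 4.24% downward. The members that rose included transcription factors (Irf7, Irf9), the ubiquitin-like modifier Isg15 and antiviral effectors (Oasl2, Ifit1, Ifit3, Rsad2, Bst2), along with all 3 galectin and surface genes. Their changes ran from 0.46 for Ly6e to 1.26 for Zbp1 in log2 units. Zbp1 passed the expression filter only through TAC libraries, as no sham library reached it. The median difference of the 37 was 0.65, against -0.01 over all tested genes, and 34 of the 37 lay above 0, as did 49.1% of all genes, while 3 lay below, as did 50.9%. In 17 members every TAC saline library lay above every sham library, which held for 4.72% of all genes (3.68% for the reverse), and no member showed the reverse. At an unadjusted p under 0.05 the count was 27, for which no share of all genes is given here, so it does not compare with the adjusted shares.

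Among the transcription factors, Irf7, which amplifies the interferon response, stood at 5.00, 7.78, 6.22, 7.48 and 5.24 CPM in sham saline libraries 1 to 5 and at 12.6, 10.1, 11.6, 17.9 and 14.5 CPM in TAC saline libraries 1 to 5. Every TAC saline library lay above every sham library, and the difference was 1.07 ± 0.18 (adjusted p = 0.000469), a 2.10-fold rise. Irf9, the DNA-binding subunit of ISGF3, measured 13.9, 13.3, 8.13, 16.6 and 11.5 CPM in sham saline and 23.9, 17.6, 18.5, 24.6 and 24.9 CPM in TAC saline. Again the groups did not overlap, with a difference of 0.81 ± 0.17 (adjusted p = 0.00257). Stat2, its partner in ISGF3, and Irf8, a factor of macrophages and dendritic cells, did not pass, at 0.68 ± 0.25 (adjusted p = 0.0798) and 0.65 ± 0.23 (adjusted p = 0.0765). In both genes the lowest TAC saline library still lay above the highest sham library, with Stat2 at 5.03 to 9.67 against 10.2 to 15.9 CPM and Irf8 at 3.45 to 6.54 against 7.08 to 11.3 CPM. Irf1, a factor induced by interferon gamma, differed by 0.10 ± 0.16 (adjusted p = 0.776), with 14.8 to 29.7 CPM in sham saline and 20.4 to 31.3 CPM in TAC saline.

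**Figure D1:**
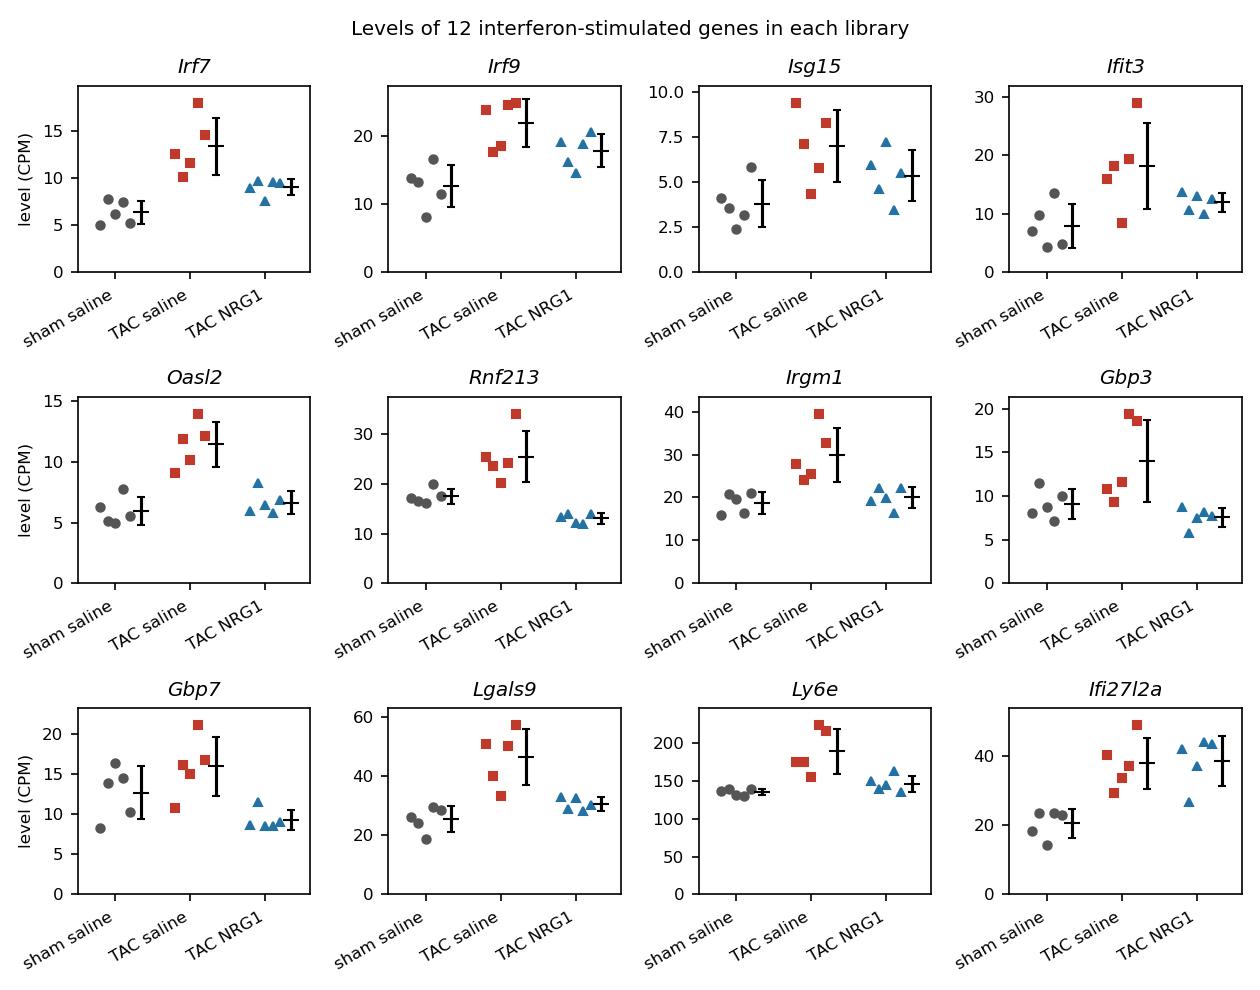
Level in CPM (vertical axis) of 12 members in each library of sham saline (grey circles), TAC saline (red squares) and TAC NRG1 (blue triangles), with libraries 1 to 5 from left to right and the group mean ± SD in black. Irf7, Irf9, Oasl2, Rnf213, Irgm1, Lgals9, Ly6e and Ifi27l2a show no overlap between sham saline and TAC saline, and Rnf213 in TAC NRG1 (11.8 to 14.0 CPM) lies below both other groups.

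Of the sensors and feedback genes, 2 of 5 tested rose, where 6.47% of all tested genes rose. Zbp1, a sensor of Z-form nucleic acids, measured 1.22, 2.24, 1.12, 1.98 and 1.35 CPM in sham saline and 2.46, 2.87, 3.29, 5.07 and 5.41 CPM in TAC saline, a difference of 1.26 ± 0.41 (adjusted p = 0.0475). The groups did not overlap, but these levels rest on 3 to 8 reads per sham saline library and 8 to 22 per TAC saline library. Isg15, the modifier whose promoter holds 3 overlapping ISRE matches, stood at 4.11, 3.56, 2.39, 3.20 and 5.83 CPM in sham saline and 9.40, 7.12, 4.33, 5.81 and 8.30 CPM in TAC saline. Sham saline 5 lay within the TAC saline range, and the difference was 0.88 ± 0.27 (adjusted p = 0.0378). Usp18, the protease that removes ISG15 and damps the receptor, differed by 0.86 ± 0.34 (adjusted p = 0.113), with TAC saline 5 at 15.8 CPM and the other TAC saline libraries at 3.29 to 8.82 CPM. Ifih1, which encodes the double-stranded RNA sensor MDA5, was at 0.44 ± 0.23 (adjusted p = 0.265), and Trim30a, whose counts can be shared with close Trim30 copies, at 0.33 ± 0.21 (adjusted p = 0.372). Dhx58, which encodes the RNA sensor LGP2, was not tested. Its reads summed to 19 over the sham saline libraries, 52 over TAC saline and 32 over TAC NRG1.

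The antiviral effectors held most of the rises, with 12 of 16, where 6.47% of all tested genes rose. Ifit3, which with its relatives binds foreign RNA, measured 7.005, 9.89, 4.31, 13.6 and 4.94 CPM in sham saline and 16.0, 18.1, 8.48, 19.4 and 29.0 CPM in TAC saline. TAC saline 3 lay inside the sham range while TAC saline 5 stood highest, and the difference was 1.22 ± 0.28 (adjusted p = 0.00534). Ifit3 has a near-identical neighbour, Ifit3b, and Oas1a has Oas1g, so reads could be split between copies. Ifit1, which binds viral RNA that lacks the methylated cap of host RNA, measured 9.01, 7.52, 7.82, 9.31 and 7.03 CPM in sham saline and 13.4, 9.12, 10.9, 18.2 and 24.6 CPM in TAC saline. The groups overlapped at TAC saline 2, TAC saline 4 and 5 were highest, and the difference was 0.82 ± 0.26 (adjusted p = 0.0444).

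Oasl2, an oligoadenylate synthetase relative, gave 6.34, 5.14, 4.94, 7.78 and 5.54 CPM in sham saline and 9.11, 11.9, 10.2, 14.0 and 12.1 CPM in TAC saline. It rose without overlap, by 0.95 ± 0.19 (adjusted p = 0.00168). Oas2, an enzyme that makes the oligoadenylates that activate RNase L, rose by 0.80 ± 0.24 (adjusted p = 0.0351), with 3.22 to 5.95 CPM in sham saline and 6.75 to 7.79 CPM in TAC saline. Oas1a, of the same enzyme family, did not pass, at 1.24 ± 0.44 (adjusted p = 0.0711), on 4 to 9 reads per sham saline library. No sham saline library reached the expression filter for Oas1a.

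Ifi44 stood at 3.67, 4.35, 4.63, 5.34 and 3.44 CPM in sham saline and 7.08, 5.87, 8.83, 10.3 and 13.1 CPM in TAC saline. No library overlapped, and the difference was 1.04 ± 0.25 (adjusted p = 0.00905). Ifi27l2a, a small hydrophobic interferon-induced protein with close relatives in the genome, gave 18.3, 23.6, 14.2, 23.6 and 22.9 CPM in sham saline and 40.3, 29.4, 33.8, 36.97 and 48.9 CPM in TAC saline, again without overlap (0.89 ± 0.16, adjusted p = 0.000725). Xaf1, an antagonist of the apoptosis inhibitor XIAP, measured 6.78, 4.88, 5.26, 6.25 and 5.24 CPM in sham saline and 10.8, 8.37, 9.52, 9.02 and 14.3 CPM in TAC saline. Its groups did not overlap and differed by 0.86 ± 0.22 (adjusted p = 0.0143). Rnf213, a giant ubiquitin ligase with antimicrobial activity, gave 17.2, 16.5, 16.1, 19.98 and 17.5 CPM in sham saline and 25.3, 23.6, 20.3, 24.1 and 34.03 CPM in TAC saline. All TAC saline libraries were higher, TAC saline 3 only just, and the difference was 0.53 ± 0.13 (adjusted p = 0.012).

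The other effectors that rose were Rtp4, the membrane-fusion inhibitor Ifitm3, the virion tether Bst2 and Rsad2, which encodes viperin, by 0.77, 0.60, 0.64 and 0.47. Their adjusted p values were 0.00465, 0.000519, 0.0175 and 0.0395, in that order. Rtp4 (8.12 to 12.1 CPM in sham saline, 13.0 to 21.3 CPM in TAC saline) and Ifitm3 (123 to 128 and 156 to 224 CPM) did not overlap between groups. Bst2 (23.4 to 34.4 and 33.4 to 56.6 CPM) and Rsad2 (10.9 to 14.8 and 14.4 to 25.9 CPM) overlapped. Apart from Oas1a, the effectors that did not pass were Ifit2 at 0.51 ± 0.19 (adjusted p = 0.083), the ADP-ribosyltransferase Parp14 at 0.33 ± 0.17 (adjusted p = 0.239) and Ifi35 at -0.04 ± 0.15 (adjusted p = 0.919).

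The interferon-inducible GTPases, which attack the vacuoles of intracellular pathogens, gave 1 rise among 8 tested. The share of all tested genes that rose was 6.47%, and 1 of 8 is no clear excess over it. Irgm1, a regulator of that family, stood at 15.9, 20.7, 19.6, 16.3 and 21.1 CPM in sham saline and 27.9, 24.1, 25.5, 39.4 and 32.6 CPM in TAC saline. It rose without overlap, by 0.66 ± 0.14 (adjusted p = 0.00315). The guanylate-binding proteins (Gbp) tested did not pass: Gbp3 differed by 0.57 ± 0.20 (adjusted p = 0.0731), Gbp7 by 0.34 ± 0.19, Gbp2 by 0.31 ± 0.14, Gbp9 by -0.01 ± 0.27 and Gbp4 by -0.23 ± 0.26. Gbp genes lie in clusters of close copies, so their reads may be shared. Igtp and Iigp1 were at 0.41 ± 0.26 and 0.04 ± 0.18, and in both TAC saline 4 stood highest, at 37.7 CPM for Igtp (others 11.1 to 19.2) and 80.2 CPM for Iigp1 (others 30.2 to 49.6). Gbp5 was not tested, with 15 reads in all in sham saline, 16 in TAC saline and 10 in TAC NRG1.

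The 3 galectin and surface genes all rose without overlap, where 6.47% of all tested genes rose and 4.72% were higher without overlap. Lgals9, which encodes the secreted lectin galectin-9, measured 26.1, 24.1, 18.7, 29.7 and 28.6 CPM in sham saline and 50.8, 40.1, 33.4, 50.3 and 57.4 CPM in TAC saline, a difference of 0.86 ± 0.14 (adjusted p = 0.000232). Lgals3bp, a secreted glycoprotein that binds galectin-3, measured 30.1, 31.8, 20.9, 34.6 and 37.2 CPM in sham saline and 53.6, 52.4, 46.9, 71.6 and 72.7 CPM in TAC saline. Its difference was 0.95 ± 0.15 (adjusted p = 0.000145). Ly6e, a membrane-anchored restriction factor, stood at 137, 139.7, 132, 130.4 and 139 CPM in sham saline and 175, 174, 155, 224 and 216 CPM in TAC saline. Its change was the smallest of all 20, 0.46 ± 0.09 (adjusted p = 0.00147).

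Of the 20 rises, 12 held in all 20 alternative analyses (Irf7, Irf9, Oasl2, Ifit3, Ifitm3, Ifi44, Ifi27l2a, Rtp4, Irgm1, Lgals9, Lgals3bp and Ly6e). Without TAC saline 5 the count was 12, with Zbp1, Isg15, Oas2, Ifit1, Rsad2, Bst2, Rnf213 and Xaf1 not past the threshold. With total reads as the only scaling, 24 members passed, 1 lay below 0, and the median of the 37 was 0.76 where that of all genes was 0.10.

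**Figure D2:**
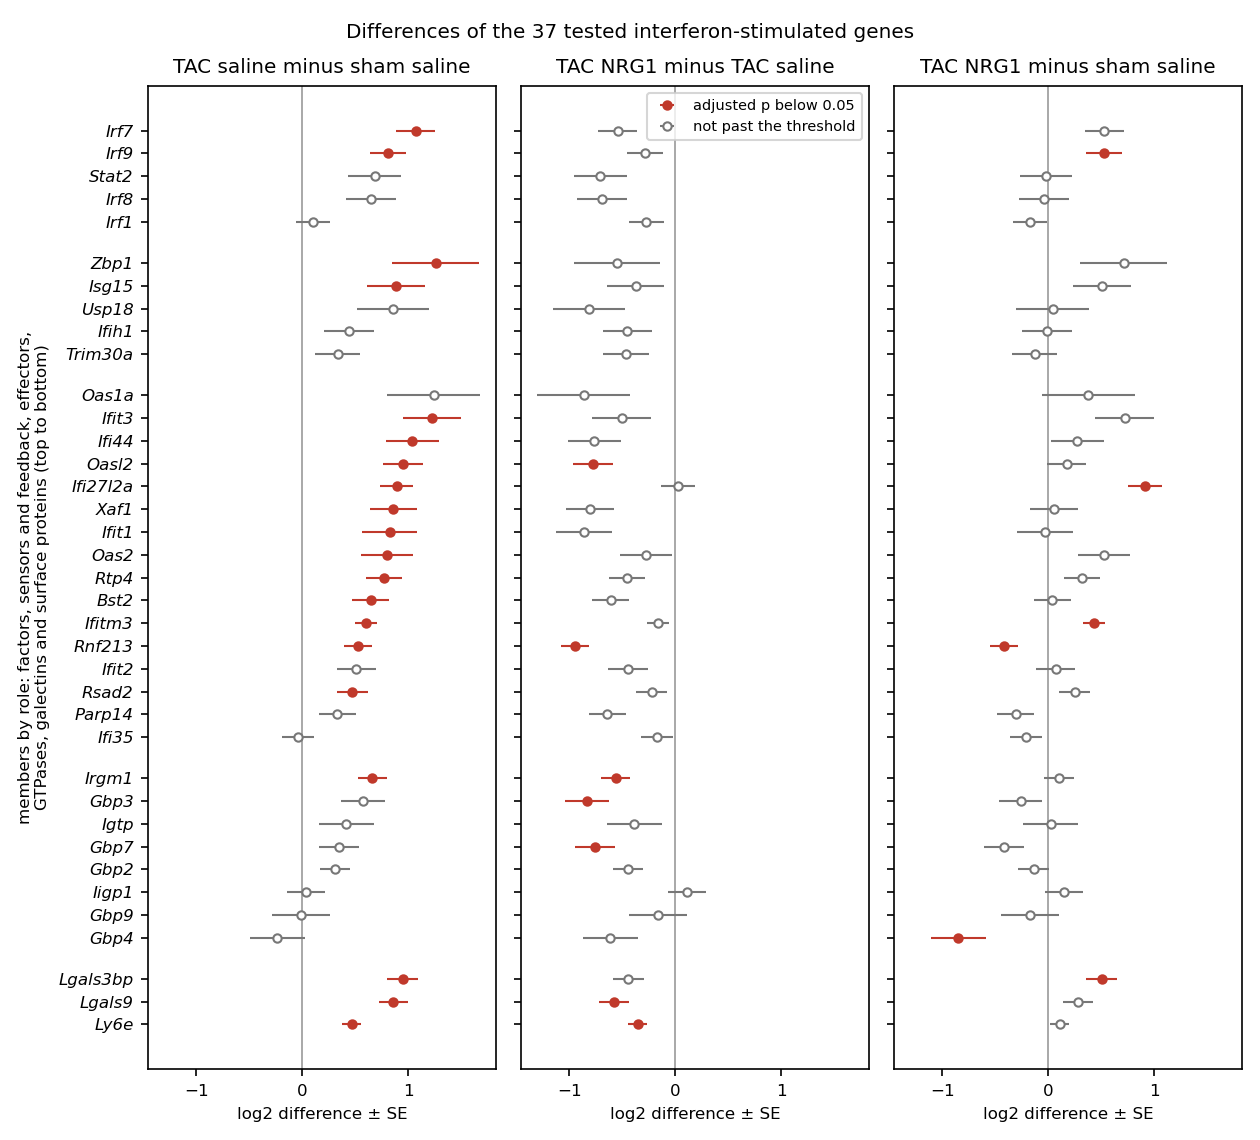
Log2 difference ± SE (horizontal axis) of the 37 tested members, ordered by role and by their TAC saline difference, in the 3 comparisons. Filled red points passed an adjusted p of 0.05 (20, 7 and 6 members), and open grey points did not. Most points lie right of 0 in the left panel (34 of 37), left of 0 in the middle panel (35 of 37) and on both sides in the right panel (23 above, 14 below).

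NRG1 under constriction was measured as TAC NRG1 against TAC saline. Of the 37 tested members, 7 fell, none rose and 30 did not pass the threshold. Of all tested genes 1.3% passed, 0.672% upward and 0.626% downward. The 7 were the ubiquitin ligase Rnf213, the GTPases Gbp3, Gbp7 and Irgm1, the effector Oasl2, the lectin Lgals9 and the surface protein Ly6e. The median difference of the 37 was -0.50, against -0.01 over all tested genes. In 35 members the difference lay below 0, as in 50.8% of all genes, and Ifi27l2a (0.03) and Iigp1 (0.11) lay above it, as did 49.2%. Every TAC NRG1 library lay below every TAC saline library in 6 members, which held for 1.25% of all genes (1.81% for the reverse), and no member showed the reverse. At an unadjusted p under 0.05 the count was 22, again without a share of all genes to set beside it. TAC saline is shared with the first comparison, so a high TAC saline library raises the first difference and lowers the second.

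Rnf213 had the largest difference. Its TAC NRG1 libraries 1 to 5 gave 13.4, 14.0, 12.1, 11.8 and 13.9 CPM, below every TAC saline library and also below every sham library. The difference was -0.95 ± 0.13 (adjusted p = 0.000226), a fall to 0.519 of the TAC saline level, and it passed in all 21 alternatives with an adjusted p of 0.000131 to 0.0022. Oasl2 measured 5.94, 8.26, 6.50, 5.80 and 6.85 CPM in TAC NRG1. Its highest TAC NRG1 library, the second, stayed under the lowest TAC saline library, and the difference was -0.78 ± 0.19 (adjusted p = 0.0351).

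Among the GTPases, Gbp3 measured 8.12, 11.5, 8.77, 7.17 and 10.02 CPM in sham saline, 10.8, 9.37, 11.6, 19.4 and 18.6 CPM in TAC saline and 8.71, 5.83, 7.51, 8.13 and 7.73 CPM in TAC NRG1. TAC saline 4 and 5 stood far above the other 3 TAC saline libraries, yet the groups did not overlap, and the difference was -0.83 ± 0.20 (adjusted p = 0.0398). Gbp7 stood at 8.34, 13.8, 16.4, 14.5 and 10.3 CPM in sham saline, 10.8, 16.1, 15.1, 21.1 and 16.7 CPM in TAC saline and 8.71, 11.6, 8.53, 8.59 and 9.06 CPM in TAC NRG1. TAC NRG1 2 overlapped TAC saline 1, and the difference was -0.76 ± 0.19 (adjusted p = 0.0428). Both genes carry the ISRE letters printed above, and neither had passed the test under TAC with saline. Irgm1 gave 19.2, 22.2, 19.996, 16.5 and 22.3 CPM in TAC NRG1, all below the lowest TAC saline library (-0.56 ± 0.14, adjusted p = 0.0418).

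Lgals9 gave 33.0, 28.8, 32.7, 28.1 and 30.3 CPM in TAC NRG1, and its highest value lay just under the lowest TAC saline library. The difference was -0.58 ± 0.14 (adjusted p = 0.0351). Ly6e gave 150.2, 139.8, 144, 163 and 135 CPM in TAC NRG1. TAC NRG1 4 overlapped TAC saline 3, and the difference was -0.36 ± 0.09 (adjusted p = 0.0443).

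Irf7 had no overlap between the groups either but did not pass, with 8.98, 9.66, 7.51, 9.52 and 9.503 CPM in TAC NRG1 and a difference of -0.54 ± 0.18 (adjusted p = 0.142). The other factors differed by -0.29 (Irf9), -0.27 (Irf1), -0.69 (Irf8) and -0.70 (Stat2). Zbp1 gave 3.46, 2.00, 5.99, 1.16 and 1.99 CPM in TAC NRG1 and Isg15 5.94, 4.61, 7.26, 3.48 and 5.52 CPM. Their differences of -0.55 ± 0.41 and -0.37 ± 0.27 did not pass, and TAC NRG1 3 was the highest of its group in both. Usp18 was at -0.81 ± 0.34 (adjusted p = 0.258), Ifih1 at -0.45 ± 0.23 and Trim30a at -0.46 ± 0.21.

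Apart from Oasl2, the effectors with the largest rises under TAC did not pass with NRG1. Ifit3 measured 13.7, 10.7, 13.1, 9.98 and 12.6 CPM in TAC NRG1 (-0.50 ± 0.28, adjusted p = 0.397), and Ifi44 5.67, 7.05, 6.75, 3.48 and 3.76 CPM (-0.76 ± 0.25, adjusted p = 0.135). Ifit1 measured 14.2, 8.96, 8.53, 6.73 and 4.199 CPM (-0.86 ± 0.26, adjusted p = 0.1), from TAC NRG1 1 within the TAC saline range down to TAC NRG1 4 and 5 under every sham library. Xaf1 measured 5.11, 4.26, 5.48, 10.4 and 5.52 CPM (-0.80 ± 0.22, adjusted p = 0.0744), where TAC NRG1 4 alone reached the TAC saline range. Parp14 (-0.64 ± 0.17, adjusted p = 0.0621) and Bst2 (-0.61 ± 0.17, adjusted p = 0.078) did not pass either. Ifi27l2a lay within its TAC saline range in all but TAC NRG1 2, with 41.9, 26.7, 37.1, 43.9 and 43.5 CPM in TAC NRG1 against 29.4 to 48.9 CPM in TAC saline, a difference of 0.03 ± 0.16 (adjusted p = 0.956).

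The remaining members did not pass and lay between -0.16 (Ifitm3) and -0.86 (Oas1a), save Iigp1 at 0.11. Among them Oas2 was at -0.27, Ifit2 at -0.44, Rsad2 at -0.22, Rtp4 at -0.45 and Ifi35 at -0.17. The GTPases Gbp2, Gbp4, Gbp9 and Igtp were at -0.44, -0.61, -0.16 and -0.39, and Lgals3bp at -0.44 (adjusted p = 0.135).

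Rnf213 alone among the 7 passed in every alternative. Without the shallow libraries TAC NRG1 4 and 5, 2 members passed, Rnf213 at -0.93 (adjusted p = 0.0022) and Xaf1 at -1.05 (adjusted p = 0.0293), whose adjusted p ran from 0.016 to 0.198 over its analyses. The other 6 kept negative differences, with Oasl2 at -0.73 (adjusted p = 0.169), Gbp3 at -0.88 (adjusted p = 0.122), Gbp7 at -0.72 (adjusted p = 0.188), Irgm1 at -0.53 (adjusted p = 0.169), Lgals9 at -0.53 (adjusted p = 0.176) and Ly6e at -0.37 (adjusted p = 0.129). Over the analyses run, the adjusted p was 0.0252 to 0.169 for Oasl2, 0.0236 to 0.164 for Gbp3, 0.025 to 0.188 for Gbp7, 0.0318 to 0.169 for Irgm1, 0.00837 to 0.176 for Lgals9 and 0.0142 to 0.129 for Ly6e. The count was 1 without TAC saline 4 or without TAC saline 5, 2 without TAC NRG1 3, 4 or 5, and 4 without TAC saline 1 or 2.

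Against sham saline, the TAC NRG1 libraries showed where the members stood relative to unloaded hearts. Of the 37, 4 were higher past the threshold, 2 were lower and 31 did not pass. Of all tested genes 16.1% passed, 8.74% upward and 7.39% downward. The members' share past the threshold lay close to this, so the calls describe single genes and not the members as a set. The median of the 37 was 0.07, against -0.01 over all tested genes, with 23 members above 0 (48.0% of all genes) and 14 below (52.0%). Ifitm3 and Ifi27l2a lay above sham without overlap (6.23% of all genes did), and Rnf213 lay below without overlap (5.45%). The members' shares did not exceed these. At an unadjusted p under 0.05 the count was 10, again without a share of all genes to set beside it. The sham libraries are shared with the first comparison and the TAC NRG1 libraries with the second.

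The 4 higher genes were Ifi27l2a at 0.91 ± 0.16 (adjusted p = 0.000263), Ifitm3 at 0.43 ± 0.10 (adjusted p = 0.00507), Irf9 at 0.52 ± 0.17 (adjusted p = 0.0336) and Lgals3bp at 0.51 ± 0.15 (adjusted p = 0.0195). Ifitm3 stood at 138 to 216 CPM in TAC NRG1 against 123 to 128 CPM in sham saline. Irf9 measured 19.2, 16.3, 14.6, 18.8 and 20.6 CPM in TAC NRG1, and Lgals3bp 49.9, 37.7, 43.2, 36.9 and 49.7 CPM, each overlapping its sham range. Irf7 missed the threshold at 0.53 ± 0.18 (adjusted p = 0.0504).

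The 2 lower genes were Rnf213, at -0.42 ± 0.13 (adjusted p = 0.0338), and Gbp4, at -0.85 ± 0.26 (adjusted p = 0.0273). Gbp4 stood at 5.45, 7.25, 7.82, 4.73 and 6.43 CPM in sham saline, 4.19, 4.62, 4.68, 8.53 and 5.41 CPM in TAC saline and 5.39, 3.39, 2.42, 3.95 and 2.87 CPM in TAC NRG1. Only TAC NRG1 1 reached the sham range for Gbp4, and its difference from TAC saline was -0.61 ± 0.26 (adjusted p = 0.26). With scaling by total reads alone, the split was 5 higher and 0 lower. Without TAC NRG1 4 and 5 it was 3 higher and 0 lower, with Irf9 at 0.43 (adjusted p = 0.158), Rnf213 at -0.41 (adjusted p = 0.0882) and Gbp4 at -0.82 (adjusted p = 0.0732). Over the analyses run, the adjusted p was 0.0139 to 0.158 for Irf9, 0.0312 to 0.177 for Rnf213 and 0.012 to 0.0907 for Gbp4. The count was 3 without sham saline 3 or without sham saline 5.

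Side by side, the 3 comparisons gave 7 patterns of calls. Rnf213 rose under TAC, fell with NRG1 and ended below sham. Oasl2, Irgm1, Lgals9 and Ly6e rose, fell with NRG1 and did not differ from sham past the threshold, at 0.17, 0.10, 0.28 and 0.11. Irf9, Ifitm3, Ifi27l2a and Lgals3bp rose, did not pass with NRG1 and were above sham past the threshold. The largest class, 11 members, rose under TAC and passed neither other test: Irf7, Zbp1, Isg15, Oas2, Ifit1, Ifit3, Rsad2, Bst2, Ifi44, Xaf1 and Rtp4. Gbp3 and Gbp7 fell with NRG1 only, Gbp4 was lower only against sham, and 14 members passed nowhere. A member that passed in 1 comparison and missed in another is not thereby shown to differ between them. The calls against sham in TAC NRG1 were about as frequent as among all genes.

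**Figure D3:**
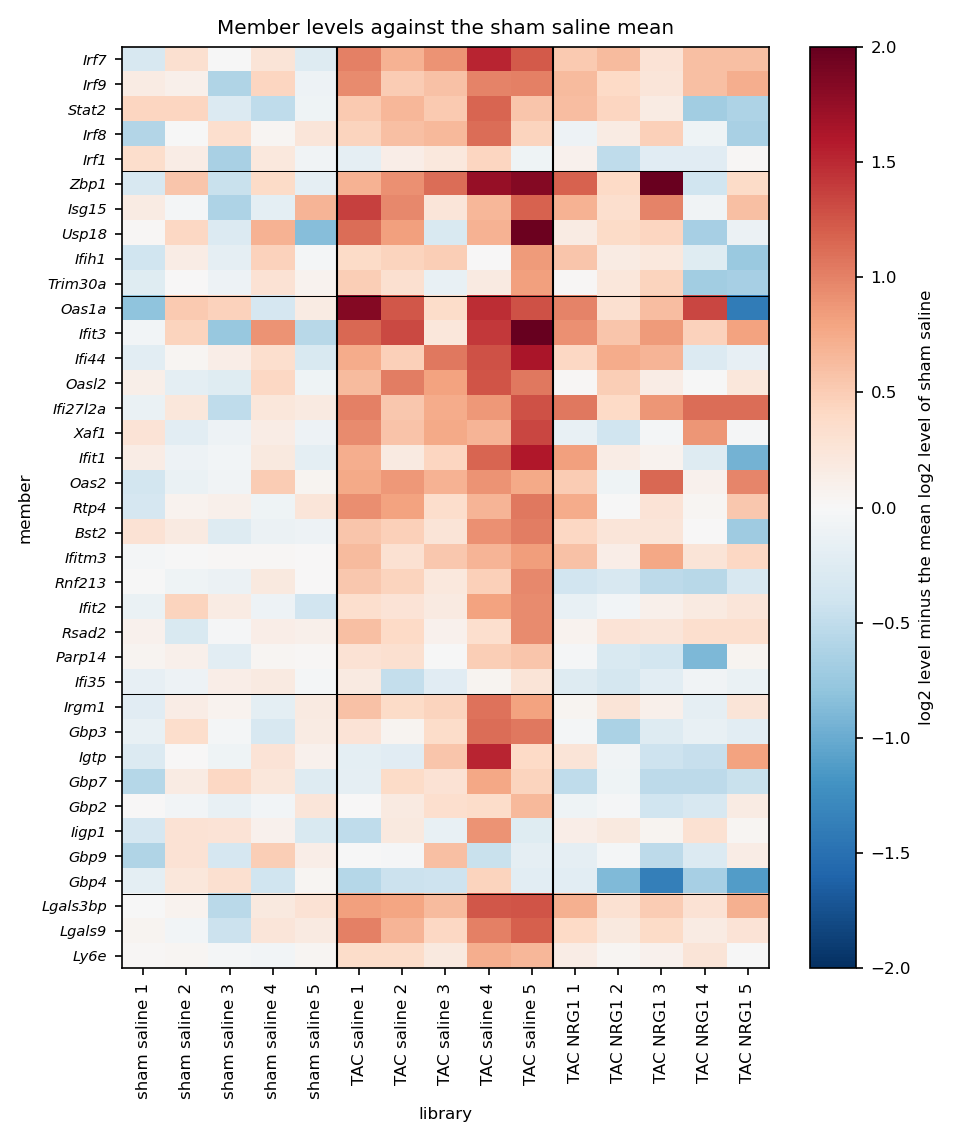
Log2 level of each of the 37 tested members (rows, grouped by role) in each of the 15 libraries (columns) minus the gene's mean over the sham saline libraries, from blue (lower) to red (higher). Differences beyond 2 take the end colour. TAC saline 4 and 5 are the reddest columns, with member means of 0.83 and 0.90.

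The libraries of a group differed in how far the members moved together. The mean log2 level of the 37 members relative to the sham mean was -0.13 to 0.14 in the sham saline libraries, 0.38 to 0.90 in TAC saline and -0.02 to 0.29 in TAC NRG1. The lowest TAC saline library, TAC saline 3, thus stood above the highest TAC NRG1 library, TAC NRG1 1. TAC saline 5 was highest at 0.90, followed by TAC saline 4 at 0.83, and TAC NRG1 4 was lowest of its group at -0.02. Over the deviations from the group means in the 15 libraries, the median correlation of the 666 pairs of members was 0.22, with 517 pairs above 0. The mean was 0.21, against 0.00059 over all tested genes. Scaling each library tends to hold the all-gene mean near 0, so nothing is concluded from that gap. Members followed the mean of the others most for Ifit3 (r = 0.73), Lgals9 (0.73), Lgals3bp (0.72), Ifit1 (0.71) and Zbp1 (0.70), and least for Gbp9 (-0.21) and Xaf1 (-0.06). These values are descriptions over libraries that differ in depth.

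Macrophage markers were measured in the same libraries. Of 12 macrophage markers, 7 rose under TAC with saline (Cd68, Adgre1, C1qa, C1qb, C1qc, Tyrobp and Cx3cr1), and none passed with NRG1, with 11 of 12 differences below 0 and a median of -0.23. In TAC NRG1 against sham Cd68 and C1qa were higher. Among all tested genes 6.47% rose under TAC with saline and 8.74% were higher in TAC NRG1 than in sham. The mean log2 level of the 12 markers relative to sham was -0.15 to 0.28 in sham saline. It was 0.19 to 0.97 in TAC saline and -0.09 to 0.77 in TAC NRG1. Their summed level was 515 to 810 CPM, 588 to 1069 CPM and 496 to 887 CPM in the same order. No marker was at 0 in a group, and Cx3cr1, among the lowest, had 27, 86 and 38 reads. Cx3cr1 may have passed the expression filter mainly through TAC saline, where it was highest, so its rise is given with that selection in view. The groups overlapped in both macrophage measures, and the member means of TAC saline and TAC NRG1 did not overlap. TAC NRG1 3 had a macrophage mean of 0.77 and a member mean of 0.20, while TAC saline 5 had 0.48 and 0.90. Other libraries were high or low in both, with TAC saline 4 at 0.97 and 0.83. TAC saline 3, the lowest of its group in both, had 0.19 and 0.38, and TAC NRG1 4 had 0.04 and -0.02. The part of macrophage content in the members' differences was not tested.

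**Figure D4:**
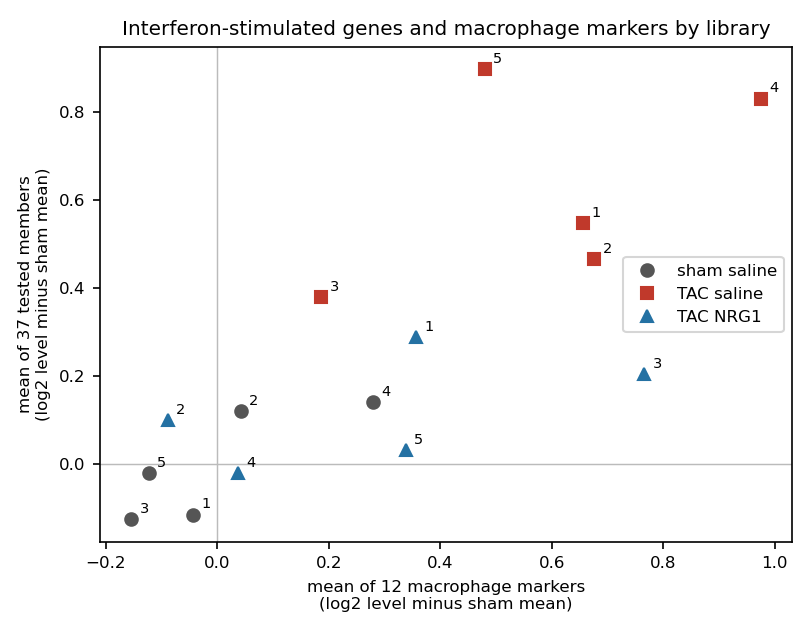
Mean log2 level of the 37 tested members (vertical axis) against that of 12 macrophage markers (horizontal axis), each minus the sham saline mean, for the 15 libraries, numbered by replicate. The TAC saline libraries (red squares) lie above every TAC NRG1 library (blue triangles) on the vertical axis and overlap them on the horizontal axis. There TAC NRG1 3 reaches 0.77 and TAC saline 4 reaches 0.97.

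Markers of other blood-borne cells were near the detection limit. Of 6 monocyte and neutrophil markers, only the chemokine receptor Ccr2 could be tested, and it rose under TAC (1.28 ± 0.36, adjusted p = 0.0246) and was at -0.53 ± 0.36 with NRG1. The list summed to 3.36 to 5.78 CPM in sham saline, 5.54 to 15.6 CPM in TAC saline and 4.52 to 14.3 CPM in TAC NRG1. With sums this low in sham saline, Ccr2 may have passed the expression filter mainly through TAC libraries, so its rise is given with that in view. Of 7 T and NK cell names 3 were present, as were 3 of 6 names for B cells and plasmacytoid dendritic cells. None of these could be tested, and each set of 3 summed to at most 4.12 CPM in any library. Siglech, which marks the plasmacytoid dendritic cells known as strong interferon producers, had 6, 5 and 3 reads summed over each group in the order sham saline, TAC saline, TAC NRG1. The 6 cardiomyocyte markers, which check the labelled tissue, summed to at least 44049 CPM in every library. Of these 6, Actc1 rose under TAC (0.39 ± 0.10), Tnni3 and Pln fell (-0.44 ± 0.11 and -0.42 ± 0.09), and Tnnt2 rose with NRG1 (0.35 ± 0.08, adjusted p = 0.0351). In TAC NRG1 against sham Actc1 was higher and Myh6, Tnni3 and Pln were lower. Of 6 endothelial markers none passed under TAC, and Cdh5, the endothelial cadherin, fell with NRG1 (-0.43 ± 0.09, adjusted p = 0.0157). With NRG1 5 of the 6 lay below 0 (median -0.21), and all 6 lay below sham in TAC NRG1. Of all tested genes 6.47% rose and 4.24% fell under TAC, and 0.672% rose and 0.626% fell with NRG1. Against sham in TAC NRG1, 8.74% were higher and 7.39% lower. The part of monocytes, neutrophils, endothelial cells and cardiomyocytes in the members' differences was not tested.

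Upstream of the members, the receptor and kinase genes gave no call in either of the first 2 comparisons. Of 9 listed, 8 were tested. The type I receptor genes differed under TAC by 0.29 ± 0.18 (Ifnar1) and 0.14 ± 0.13 (Ifnar2), and with NRG1 by -0.31 ± 0.18 and 0.04 ± 0.13. Ifngr1, a chain of the interferon gamma receptor, was at 0.37 ± 0.12 under TAC (adjusted p = 0.0532) and -0.22 ± 0.12 with NRG1, and its partner Ifngr2 at -0.14 ± 0.10 and -0.04 ± 0.10. Jak1 fell against sham in TAC NRG1 (-0.49 ± 0.10, adjusted p = 0.00154) and was at -0.28 ± 0.10 in TAC saline against sham. Of all tested genes, 7.39% were lower in TAC NRG1 than in sham. Jak2 and Tyk2 were at 0.23 and 0.08 under TAC. Il10rb, a shared chain of the interferon lambda receptor, was at -0.28 (adjusted p = 0.106). Ifnlr1 was too low to test. The interferon ligand genes were not analysed here.

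Of 5 other interferon regulatory factors, Irf2, Irf3 and Irf5 were tested and none passed in any comparison. Irf5, a factor of macrophages, was at 0.91 ± 0.32 (adjusted p = 0.0674) under TAC and -0.33 ± 0.32 with NRG1. Of 20 other nucleic acid sensor and adaptor names, 14 were present and 10 tested, with none past the threshold in any comparison. Of 9 brakes on cytokine signalling, 8 were tested and none passed in the first 2 comparisons. Socs3, a feedback inhibitor of JAK kinases, was at 1.07 ± 0.35 under TAC (adjusted p = 0.0521), and it rose in TAC NRG1 against sham (1.27 ± 0.35, adjusted p = 0.0156). In the same comparison 2 brakes fell, Ptpn11, which encodes the phosphatase SHP2 (-0.31 ± 0.10, adjusted p = 0.0414), and Irf2bp2, a corepressor that binds IRF2 (-0.38 ± 0.11, adjusted p = 0.0244). There 8.74% of all tested genes were higher and 7.39% lower.

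A further list of 79 interferon-stimulated genes outside the 39 had 51 tested. Under TAC with saline 9 of them rose and none fell, and with NRG1 2 fell and none rose. Their median differences were 0.35 and -0.24. Among all tested genes 6.47% rose and 4.24% fell under TAC, and 0.672% rose and 0.626% fell with NRG1. In TAC NRG1 against sham 5 of the 51 rose (Ifi30, Ifitm2, Plscr1, Tor3a and Cxcl10), none fell and the median was 0.05. In that comparison 8.74% of all tested genes rose and 7.39% fell. The rises under TAC with saline were Ifi47 (1.20), Ifi204 (0.77), Ifi30 (0.77), Ifitm2 (0.35), Sp110 (1.21), Parp9 (0.49), Slfn9 (1.51), Shisa5 (0.53) and the chemokine Cxcl10 (2.00). Cxcl10, which draws T cells to inflamed tissue, had 0.748 to 1.68 CPM in sham saline and 1.90 to 11.9 CPM in TAC saline, and no library overlapped. No sham saline library reached the expression filter for Cxcl10, so the gene was tested only because of its level in TAC libraries. Its rise and lack of overlap are given with that selection in view. The 2 that fell with NRG1 were Ifi203, a relative of the DNA sensor IFI16, at -0.71 ± 0.17 (adjusted p = 0.0357), and the interferon gamma-induced chemokine Cxcl9, at -0.92 ± 0.23 (adjusted p = 0.0428). Over all 80 tested pathway genes outside the members, receptors to targets, 9 rose under TAC with a median of 0.22, and 2 fell with NRG1 with a median of -0.17. The shares of all tested genes given above apply here too.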

How the data were processed

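Tri Reagent was used to extract total RNA from frozen tissue for BRB-seq, per the labels' protocols, and all 15 libraries are labelled batch 1. The genome build was GRCm39, per the submitters' processing notes. The aligner is not given in the sources used here. Each file holds deposited log2 values, in which the authors added 0.5 to each gene's reads and scaled every library by 1 factor, a form inferred from the steps between low values. Undoing it gave whole reads: in each library 98.8% to 99.5% of values lay no more than 0.05 from a whole number, and 100.0% of those under 1000 reads. CPM were obtained by raising 2 to the deposited value and dividing by 1000. Libraries of a group differed beyond counting noise (chi-square per degree of freedom 2.27 to 12.1).

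All 15 libraries entered 1 limma fit (version 3.58.1, R 4.3.3; spread modelled as a trend on level) of the log2 values, without a replicate block. Genes also needed 15 reads in total, and 4240 of 15258 were left out. The median SE was 0.16. Comparisons share libraries. Precision is limited by depth: 12 of the 37 tested members had under 10 reads in some library, and counting error is only part of the spread.

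The members and gene lists were chosen with earlier results of these data known, so they are not independent evidence. Members past the threshold in some comparison are named with library values, up to 6 a role by their TAC change, plus Irf7, Oasl2 and any that passed with NRG1. The rest are given by range, count or value. One pathway gene is not reported here. Pathway genes past the threshold and all receptor genes are also named, and a few marker genes and values were chosen after they were seen. Alternatives covered scaling, pseudocount, test, filter, groups fitted, replicate block, spread, depth and leaving out libraries. Promoters came from the RefSeq table on GRCm38.p6, used for its own coordinates only. Software for tables and plots was Python 3.11.15 with matplotlib 3.10.9, numpy 2.4.6 and pandas 2.3.3.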

Additional observations from a re-analysis of the deposited data

Results flagged for a closer look

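In 111 sets of 5 libraries (37 tested members in 3 groups), the gap between the highest or lowest library and its nearest neighbour was compared with the group's range, and 5 sets exceeded the 95% limit for such a gap. Chance alone gives about 1 in 20. Irf7 was 7.51 CPM in TAC NRG1 3, below the 8.98 to 9.66 CPM of the other TAC NRG1 libraries. Stat2 was 15.9 CPM in TAC saline 4, above 10.2 to 11.4 CPM in the others of that group. Xaf1 was 10.4 CPM in the shallow library TAC NRG1 4, above 4.26 to 5.52 CPM in the others. Parp14 was 10.05 CPM in sham saline 3, below 11.8 to 12.5 CPM in the others. Gbp7 was 11.6 CPM in TAC NRG1 2, above 8.53 to 9.06 CPM in the others.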

How the results depend on the processing

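For TAC saline against sham saline, the count of members past the threshold was 15 to 24 under all alternatives that kept every library, and 12 to 22 on leaving out 1 library. For TAC NRG1 against TAC saline it was 7 as reported. It was 3 with total reads as the only scaling, 4 with no filter beyond a read, 2 with only the 2 groups fitted, 3 with reads thinned to the fewest, 2 without TAC NRG1 4 and 5, and 1 to 8 on leaving out 1 library. For TAC NRG1 against sham saline it was 6 as reported, 3 without TAC NRG1 4 and 5, and 3 to 7 on leaving out 1 library. The cause of these changes was not tested, except that leaving out libraries or groups leaves fewer samples. Replicate numbers did not pair the libraries: same-numbered libraries of different groups correlated at -0.29 to 0.09. In 15 comparisons of a library with those of another group, the same number correlated best in 3. With the replicate block the counts were 18, 3 and 6. No called gene reversed. Of the gene and alternative pairs, 343 of the TAC calls held and 56 were lost, 78 held and 69 were lost for NRG1 against TAC saline, and 99 held and 27 were lost for NRG1 against sham. Low read numbers limit Zbp1, Oas1a, Dhx58 and Gbp5 most.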

Other observations

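Genes of antigen presentation by MHC class I are another set of interferon targets. Of 16 tested, 4 rose in TAC saline against sham and none fell: B2m, the light chain of MHC class I (0.60 ± 0.11, adjusted p = 0.000917), the peptide transporter Tap1 (0.82 ± 0.27, adjusted p = 0.0479), the heavy chain H2-D1 (0.38 ± 0.12, adjusted p = 0.0475) and Pdia3, a disulfide isomerase of peptide loading (0.37 ± 0.12, adjusted p = 0.0433). H2-D1 shares sequence with other class I genes, so its reads are uncertain. B2m measured 458 to 579 CPM in sham saline, 677 to 1125 CPM in TAC saline and 518 to 707 CPM in TAC NRG1. None of the 16 passed with NRG1, where the median was -0.16 and B2m was at -0.40 ± 0.11 (adjusted p = 0.0752). In TAC NRG1 against sham Pdia3 (0.36 ± 0.12, adjusted p = 0.0375) and Calr, a chaperone of the endoplasmic reticulum (0.37 ± 0.10, adjusted p = 0.0105), were higher. Among all tested genes 6.47% rose under TAC with saline and 8.74% were higher in TAC NRG1 than in sham saline.

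Of 6 fibroblast markers, 3 rose and 1 fell under TAC, and none passed with NRG1. In TAC NRG1 against sham 3 were higher and 1 lower. Their differences ran from -0.57 to 1.70 under TAC and from -0.60 to 1.99 in TAC NRG1 against sham. The 6 summed to 1730 to 1838 CPM in sham saline, 1570 to 2047 in TAC saline and 1641 to 1939 CPM in TAC NRG1. Among all tested genes 6.47% rose and 4.24% fell under TAC, and 8.74% were higher and 7.39% lower in TAC NRG1 against sham. Lum, a collagen-binding proteoglycan, measured 42.9 to 59.99 CPM in sham saline, 84.0 to 120.1 CPM in TAC saline and 102 to 150.1 CPM in TAC NRG1. It rose under TAC (1.11 ± 0.12, adjusted p = 2.30e-06) and was at 0.22 ± 0.12 with NRG1 (adjusted p = 0.378). Plscr1, an interferon-inducible phospholipid scramblase outside the 39 members, was at 0.55 ± 0.21 under TAC, at 0.68 ± 0.21 with NRG1 (adjusted p = 0.099) and above sham in TAC NRG1 (1.23 ± 0.21, adjusted p = 0.000178), and was picked after its values were seen.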
